A study of Mus musculus with 16 samples.

Results

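Embryonic mouse skin was separated by fluorescence-activated cell sorting into 8 fractions, and 196 genes set the fraction labelled Neg apart from the other 7. A gene was taken when its lower Neg value was at least 5 FPKM and at least 4 times its highest value in any other library. FPKM is a fragment count scaled by transcript length and library size, so levels of different genes can be set side by side. The rule kept 196 of the 23235 rows of the table. It used the values of Neg against the other libraries, so those values are described here and carry no test.

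The RNA came from skin at embryonic day 14.5, with 2 libraries for each of the fractions Neg, Fb, DC, DCSch, Sch, Mc, Pc and Epi, 16 in all. These short names are not explained by the submitters. From general knowledge Neg is read as negative, Fb as fibroblast, DC as dermal condensate, Sch as Schwann cell, DCSch as a mixture of both, Mc as melanocyte, Pc as placode and Epi as epidermis. All groups share tissue and age. Strain, genotype, any reporter allele, the sort markers and the number of embryos behind a library are not stated in the labels. No label says that replicates 1 and 2 came from separate litters, so every p-value below measures only the spread between these libraries, which may be technical.

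A negative fraction collects the cells that carry none of the colours used for sorting, so it can hold any cell type the sort was not built to catch. Embryonic skin contains such cells in its blood, its vessels and the muscle layer beneath the dermis. Red cells are filled with hemoglobin, a protein of alpha and beta globin chains whose embryonic forms are replaced by adult ones as blood formation moves from the yolk sac to the liver. Mast cells store proteases in granules, endothelial cells line vessels and are joined by cadherin and Pecam1, and muscle cells arise from progenitors under the control of Myf5 and its relatives.

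The 196 genes were grouped by what they are known for: 15 red cell genes, 41 of white cells in general, 13 mast cell genes, 40 of vessels, 38 of muscle, 4 that belong to more than one of these types, and 45 others. Together they took 9.98% and 11.8% of the summed FPKM of Neg replicates 1 and 2, against 0.0564% to 0.146% in the other 14 libraries. The red cell genes alone held 8.46% and 10.5%. Muscle genes held 0.693% and 0.605%, mast cell genes 0.221% and 0.249%, vessel genes 0.236% and 0.164%, and white cell genes 0.139% and 0.118%. In sorted bulk RNA a larger share of cells of a type and more RNA per cell cannot be told apart, so these shares are not shares of cells.

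**Figure D1:**
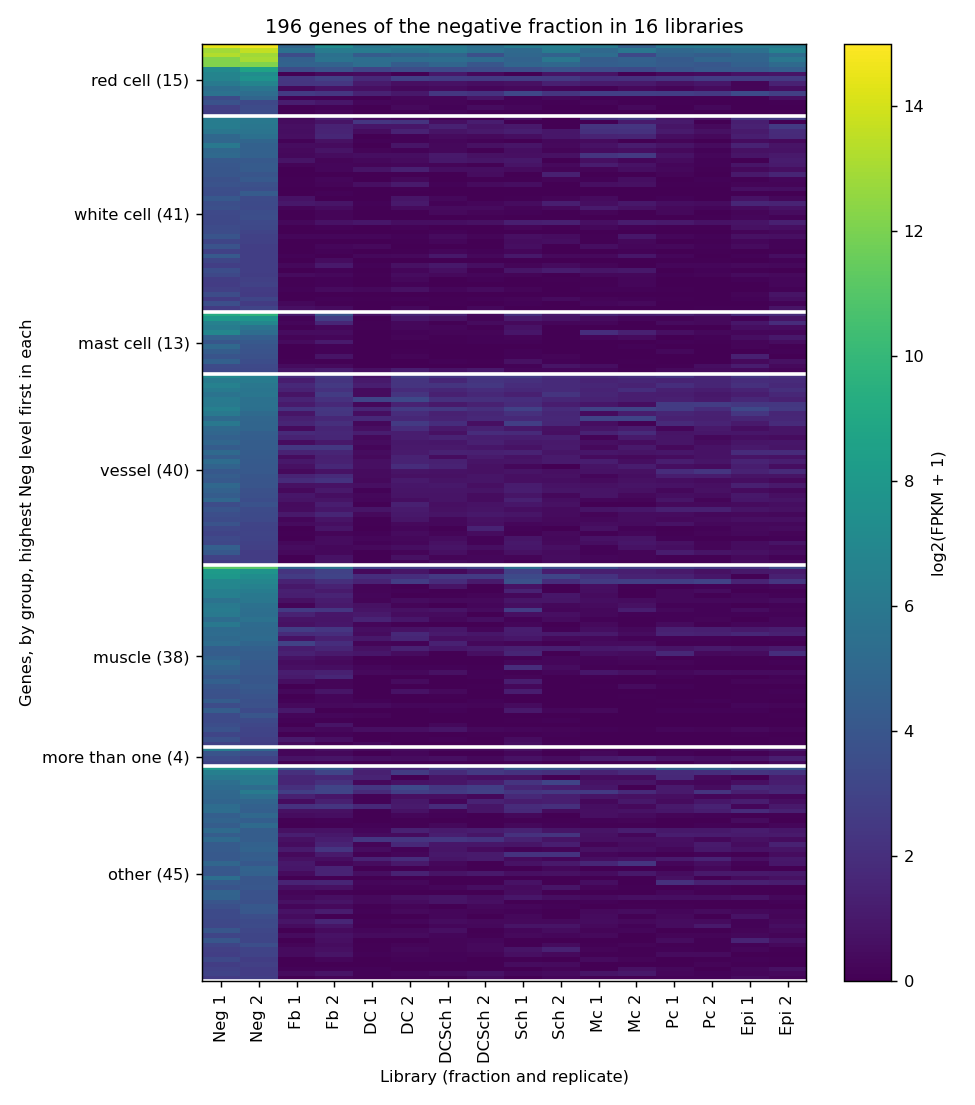
Heat map of the 196 genes (rows, by group, highest lower Neg value first) in the 16 libraries (columns), coloured by log2(FPKM + 1). Both Neg columns are bright over the whole height, as the selection rule requires. In the other 14 columns the globin rows at the top of the red cell block are among the brightest.

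All 4 genes that stand for the cell types of the fraction met the rule. Hbb-y, the embryonic beta-like globin, was at 22204 and 27245 FPKM in Neg replicates 1 and 2, and between 24.4 and 157 in the other 14 libraries, with a median of 68.1. Cpa3, the carboxypeptidase of mast cell granules, was at 603 and 905 FPKM in Neg and between 0.289 and 14.5 elsewhere, with a median of 1.59. Pecam1, an adhesion protein of endothelial junctions, was at 71.4 and 56.2 FPKM in Neg and between 0.347 and 3.38 elsewhere, with a median of 2.18. These 3 genes differed widely in their Neg level, but for each both Neg libraries lay above all 14 others. Myf5, which commits cells to the muscle lineage, was lowest, at 9.29 and 14.5 FPKM in Neg, with at most 0.222 elsewhere and 6 of the 14 libraries listed at 0. Fb replicate 2 was the highest of the 14 for Hbb-y, Cpa3 and Pecam1, and Fb replicate 1 for Myf5.

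**Figure D2:**
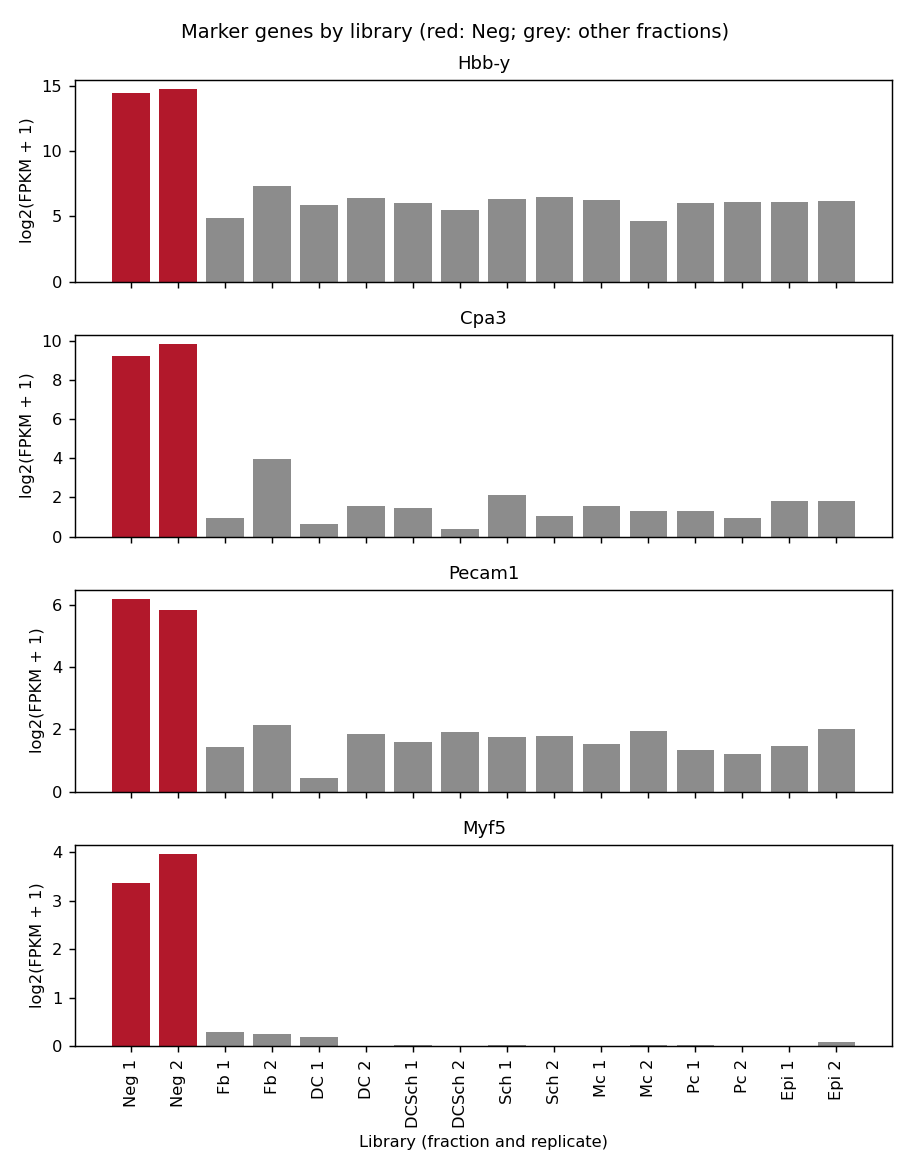
Level of Hbb-y, Cpa3, Pecam1 and Myf5 in each of the 16 libraries on a log2(FPKM + 1) axis that starts at 0, with Neg in red and the other fractions in grey. The height of the grey bars differs between genes: Hbb-y is at 24.4 FPKM or more in every library, whereas Myf5 does not pass 0.222 FPKM outside Neg.

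Red cell genes were the most abundant. The embryonic alpha-like globin Hba-x was at 9801 and 7572 FPKM in Neg replicates 1 and 2, and another embryonic beta-like globin, Hbb-bh1, at 107 and 157. The adult beta globin rows Beta-s (7710.2 and 12409.5 FPKM) and Hbb-b1 (4589 and 8322) are near-identical copies, so how their fragments were split between them is uncertain. Embryonic and adult globins were thus present together: Hbb-y, Hba-x and Hbb-bh1 made up 65.6% of the globin FPKM in Neg replicate 1 and 58.0% in replicate 2. The same share ran from 24.0% to 60.4% in the other 14 libraries, where globins took 0.0267% to 0.0746% of all FPKM. The adult part was Hbb-b1, Beta-s and an adult alpha globin symbol that more than 1 row carries. How adult alpha fragments were assigned is therefore uncertain, and so are these shares. Hbb-bh1 had a median of 0.331 FPKM and a highest value of 0.942 in the other 14. Hbb-bh2, also listed as embryonic, was no member and was left out of the embryonic and adult shares. It was listed at 0 in all 14.

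Genes for making and holding heme and the red cell membrane were also members. Alas2, the erythroid enzyme that starts heme synthesis, was at 103 and 199 FPKM in Neg and 2.35 to 6.10 elsewhere. Slc25a37, which brings iron into mitochondria, was at 145 and 398 FPKM, against 7.45 to 21.4. Car2, a carbonic anhydrase, was at 72.1 and 106 FPKM, against 0.163 to 4.12. Their higher Neg library was replicate 2 in each case. Of 32 tested genes for the red cell membrane and enzymes, 6 were members, 19 others were called higher in Neg and 1 lower. A call here means an adjusted p under 0.05 and a log2 difference of at least 1 between Neg and the mean of the other 7 fractions in limma, after Benjamini-Hochberg adjustment; 8.29% of all 14171 genes tested were called higher and 4.33% lower. This contrast is the one the selection used, so nothing is read from the members' own count. The filter, at least 1 FPKM in at least 2 of the 16 libraries, counted Neg as well. A gene under 1 FPKM in all other libraries was thus tested only if both Neg libraries reached 1 FPKM. Its call was nearly settled beforehand and supports nothing. List genes that failed the filter are missing from the counts of tested genes here and below. The non-members included Bpgm, which sets the oxygen affinity of hemoglobin (58.5 and 130.4 FPKM in Neg, 9.43 to 20.6 elsewhere).

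Erythroid transcription factors were low beside the globins. Of 12 tested, Tal1 and Ikzf1 were members, 7 others were called higher and 3 were not called. Among the 7, Gata1, Gfi1b, Lyl1 and Nfe2 did not pass 0.465 FPKM outside Neg. They were thus tested only through Neg, and their calls support nothing. Tal1, a factor of both blood and vessel cells, was at 14.2 and 10.9 FPKM in Neg and at most 0.253 elsewhere. Gata1 and Klf1, the main activators of globin genes, stayed under the minimum of 5 FPKM in at least 1 Neg library and are named here after their values were seen: Gata1 was at 5.17 and 2.65 FPKM, and Klf1 at 1.50 and 0.956. All 13 genes of this list with a Neg mean of at least 1 FPKM were higher in Neg replicate 1, and 12 of the 15 red cell members were higher in replicate 2. The list is not specific to red cells: Ldb1 was at 22.7 to 112 FPKM in the other 14 libraries and Bcl11a at up to 71.7. Tal1 was grouped here with genes of more than 1 type and Ikzf1 with white cell genes. The counts therefore do not set red cell factors against red cell products.

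The globin genes lay close together. Hbb-b1, Beta-s, Hbb-bh1 and Hbb-y fell within 40.7 kb at chr7:103812524-103853207 (mm10). In all, 25 of the 196 genes lay within 100 kb of another member, in 11 clusters, among them Hba-x with an adult alpha globin on chromosome 11, Tnni1 with Tnnt2 and Chrnd with Chrng on chromosome 1, and Prss34 with Tpsb2 on chromosome 17.

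The 250 bases before the start of 134 of the 196 genes were found in the RefSeq promoter table (GRCm38.p6, the same build as mm10) and were searched on both strands for short letter patterns known from factors of these cell types. The pattern AGATAA or TGATAA, read by GATA factors, was in 5 of the 6 red cell promoters that were matched (83.3%), against 14.3% of 17232 promoters of all genes. It was in 27.3% of the 11 mast cell promoters, in 23.8% of the 21 vessel promoters and in 14.8% of the 27 muscle promoters. With 6 promoters the first share is a count of a small set, and a match describes letters, not a bound site. The windows of 2 embryonic globins, Alas2 and Cpa3 are printed because they belong to the red cell and mast cell genes that lead the fraction. Each runs 5′ to 3′ on the gene's own strand and ends at the base before the start, with AGATAA or TGATAA, or their reverse complements TTATCT and TTATCA, in capitals. Hbb-y is on the minus strand at chr7:103853208-103853457, Hba-x on the plus strand at chr11:32276350-32276599, Alas2 on the plus strand at chrX:150547167-150547416, and Cpa3 on the minus strand at chr3:20242182-20242431.
Hbb-y: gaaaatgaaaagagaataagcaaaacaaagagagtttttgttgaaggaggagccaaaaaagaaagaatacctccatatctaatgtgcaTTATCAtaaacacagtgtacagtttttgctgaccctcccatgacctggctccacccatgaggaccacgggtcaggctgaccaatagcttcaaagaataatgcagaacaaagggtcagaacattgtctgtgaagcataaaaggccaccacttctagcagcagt
Hba-x: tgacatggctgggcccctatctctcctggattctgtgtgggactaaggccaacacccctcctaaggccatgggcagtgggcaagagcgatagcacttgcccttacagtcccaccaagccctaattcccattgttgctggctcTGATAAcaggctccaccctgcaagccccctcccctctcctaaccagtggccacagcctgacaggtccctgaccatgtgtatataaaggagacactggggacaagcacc
Alas2: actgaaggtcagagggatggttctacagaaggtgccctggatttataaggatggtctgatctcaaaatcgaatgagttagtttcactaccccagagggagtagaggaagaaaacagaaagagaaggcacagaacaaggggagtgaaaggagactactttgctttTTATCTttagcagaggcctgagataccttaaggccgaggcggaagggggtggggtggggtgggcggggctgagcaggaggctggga
Cpa3: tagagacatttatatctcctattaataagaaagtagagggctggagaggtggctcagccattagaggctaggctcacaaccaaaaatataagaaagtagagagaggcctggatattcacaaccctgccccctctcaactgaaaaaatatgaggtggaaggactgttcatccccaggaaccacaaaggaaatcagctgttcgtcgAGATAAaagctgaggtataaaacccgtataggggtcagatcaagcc
Each window held 1 match, which began 162 bases before the start in Hbb-y, 108 in Hba-x, 86 in Alas2 and 46 in Cpa3.

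Mast cell genes were the second most abundant blood group per gene. Cma1, the chymase of the granule, was at 251 and 228 FPKM in Neg replicates 1 and 2, against 0 to 5.65 in the other 14 libraries. The tryptase Tpsb2 was at 116 and 40.0 FPKM, against 0 to 2.97. Hdc, which makes histamine, was at 78.4 and 51.3 FPKM, against 0 to 0.689. Proteases, the histamine enzyme and a granule proteoglycan were therefore all present: Srgn, which packs the granule, was at 96.4 and 124 FPKM. Among receptors, Il1rl1, the receptor for interleukin 33, was at 15.3 and 16.9 FPKM, and Csf2rb, a shared cytokine receptor chain, at 24.2 and 21.8. Gata2, a factor of mast, stem and endothelial cells, was at 82.0 and 32.5 FPKM, with at most 0.925 elsewhere.

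Of 11 mast cell proteases with values, 5 passed the filter and were tested: 3 were members and 2, Tpsab1 and Tpsg1, were called higher. The remaining proteases did not reach 1 FPKM in 2 libraries, with Neg counted. Tpsab1 was at most 0.128 FPKM outside Neg, so it passed the filter only through Neg and its call supports nothing. Of 25 tested mast cell receptors and mediators, 9 were members, 10 more were called higher and 6 were not called. Over all genes tested, 8.29% were called higher. Among those called here, Ms4a2, Il4, Il13 and Csf2rb2 were at most 0.378, 0.527, 0.295 and 0.318 FPKM outside Neg. They passed the filter only through Neg, so their calls support nothing. Ms4a2, the beta chain of the high-affinity IgE receptor, was at 4.69 and 7.51 FPKM in Neg. The alpha chain of that receptor, Fcer1a, named after its values were seen, was listed at 0 in Neg replicate 1 and was at 0.141 FPKM in replicate 2. Kit, the receptor for stem cell factor on mast cells and melanocytes alike, was no member: its level was 46.2 and 40.0 FPKM in Neg but 390.5 and 522 in Mc.

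White cell genes were lower, with a median Neg mean of 10.2 FPKM over the 41 members, against 23.0 over the 13 mast cell and 132 over the 15 red cell members. Tyrobp, a signalling adaptor of myeloid cells, was at 75.9 and 65.9 FPKM in Neg replicates 1 and 2, and at 0 to 5.58 elsewhere. Fcer1g, the signalling chain of Fc receptors, was at 77.4 and 58.9 FPKM, against 0 to 4.92. Several of these genes are shared by mast cells, macrophages and other white cells, so the group names no single type. Lcp1 and Coro1a, actin-binding proteins of white cells, were at 57.3 and 53.5 FPKM and at 62.3 and 24.7 FPKM. Ikzf1, a transcription factor of lymphoid and myeloid cells, was at 29.3 and 29.2 FPKM in Neg, with at most 0.613 elsewhere.

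The lists for separate white cell types differed in how many of their genes met the rule. Of 63 tested genes of leukocytes in general, 21 were members, 28 others were called higher and 1 lower. Over all genes tested, 8.29% were called higher and 4.33% lower. Of 40 tested macrophage genes, 6 were members, 15 others were called higher, 1 lower and 18 were not called. Some calls in both lists, such as those of Ptprc, Vav1, Ccr2 and Cx3cr1, are of genes under 1 FPKM in all libraries but Neg. Such calls support nothing. Mrc1 and Lyve1, a pair of surface receptors of tissue macrophages (Lyve1 also of lymphatic vessels), missed the minimum or the fold: Mrc1 was at 3.82 and 15.8 FPKM in Neg, with up to 3.67 elsewhere, and Lyve1 at 6.86 and 16.2, with up to 3.16. Of 9 neutrophil genes tested, S100a8 and Mpo were members and 6 more were called higher. Of the 6, Camp, Elane, Lcn2 and Ngp were at most 0.497, 0.0868, 0.782 and 0.769 FPKM outside Neg. They passed the filter only through Neg, so their calls support nothing. S100a8, a calcium-binding protein of myeloid granulocytes, was at 76.9 and 62.6 FPKM, whereas its partner S100a9 (108 and 59.5 FPKM in Neg) missed the rule through 17.1 FPKM in Epi replicate 1. Lymphocyte genes were few and low: of 22 listed genes with values, 9 passed the filter and were tested. Nkg7, a granule membrane protein of natural killer and T cells, was a member (10.1 and 5.17 FPKM), and 3 more were called higher. Among these 3, Cd3g, a T cell receptor chain, was at 1.87 and 2.98 FPKM and listed at 0 in the other 14 libraries. Cd3g and Gzmb, which was at most 0.499 FPKM outside Neg, passed the filter only through Neg, so their calls support nothing.

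The letters AGGAAG, read by ETS factors such as the myeloid factor Spi1 and the endothelial factors Erg and Fli1, were in 70.0% of the 30 matched white cell promoters and 38.1% of the 21 vessel promoters, against 28.3% of all 17232. The windows of Fcer1g and Emcn, 1 gene of each group, show them on either strand (AGGAAG or CTTCCT) in capitals. Fcer1g is on the minus strand at chr1:171234350-171234599 and Emcn on the plus strand at chr3:137340828-137341077.
Fcer1g: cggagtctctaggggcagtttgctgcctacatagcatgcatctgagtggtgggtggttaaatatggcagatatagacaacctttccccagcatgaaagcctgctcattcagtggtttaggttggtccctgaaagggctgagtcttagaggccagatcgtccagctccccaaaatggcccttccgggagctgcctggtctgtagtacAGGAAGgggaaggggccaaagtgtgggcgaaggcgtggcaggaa
Emcn: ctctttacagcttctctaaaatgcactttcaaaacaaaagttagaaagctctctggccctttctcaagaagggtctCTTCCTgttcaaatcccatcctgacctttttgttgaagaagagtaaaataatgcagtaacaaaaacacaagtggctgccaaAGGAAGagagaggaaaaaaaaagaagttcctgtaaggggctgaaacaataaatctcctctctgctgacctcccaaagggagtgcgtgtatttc
The match in Fcer1g began 44 bases before the start, and those in Emcn 174 and 93 bases before it. Matched promoters with AGGAAG were 45.5% among mast cell genes, 29.6% among muscle genes and 16.7% among red cell genes.

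Vessel genes held 40 members, led by Cdh5, Cd93, Aplnr and Pecam1 in order of their lower Neg value. Cdh5, the cadherin of endothelial junctions, was at 133 and 91.9 FPKM in Neg replicates 1 and 2, and at 0.790 to 5.59 in the other 14 libraries. Cd93, a surface lectin of endothelial cells, was at 75.5 and 76.1 FPKM, against 1.05 to 3.86. Emcn, a sialomucin of veins and capillaries, was at 51.9 and 57.4 FPKM, against 0.349 to 5.14. Cdh5 was lowest of all in DC replicate 1, at 0.790 FPKM, and so was Pecam1. Among receptors, Aplnr, which binds apelin, was at 97.2 and 61.3 FPKM, and Kdr, the main receptor for vascular endothelial growth factor, at 72.6 and 47.0. Tek, a receptor for angiopoietins, met the 4-fold threshold narrowly, at 17.1 and 14.7 FPKM in Neg against 3.57 in Fb replicate 2.

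Transcription factors of endothelial cells were split between members and genes shared with other fractions. Sox7 was at 29.5 and 20.6 FPKM in Neg and at most 1.44 elsewhere, and its relative Sox17, of arteries, at 5.12 and 6.37, just above the minimum. Epas1, an oxygen-regulated factor, was at 33.6 and 19.3 FPKM. Sox18, a relative of Sox7 and Sox17, was no member and is named after its values were seen. It was at 49.7 and 13.9 FPKM in Neg and at 1313 and 346 in DC. Erg and Fli1, called higher in Neg, were at 21.0 and 15.3 FPKM and at 34.4 and 24.9 FPKM, with 8.81 and 9.55 and with 6.74 and 8.21 in Fb. Prox1, the factor that sets lymphatic identity, met the rule at 34.5 and 29.8 FPKM, with 6.91 and 7.24 in Mc.

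Of the vessel lists, 16 of 41 tested genes for endothelial adhesion and junctions were members, with 13 others called higher. For endothelial receptors and signalling the counts were 15 members of 69 tested, with 36 others higher and 1 lower. For endothelial transcription factors they were 7 of 24, with 8 others higher and 1 lower. Over all genes tested, 8.29% were called higher and 4.33% lower. Some calls in these lists, such as those of Mmrn2, Dll4, Nos3 and Tcf15, are of genes under 1 FPKM in all libraries but Neg. Such calls support nothing. Of 14 tested lymphatic genes, 4 were members, 3 others were called higher and 2 lower. Mural cells, the pericytes and smooth muscle around vessels, had no member among 20 tested genes, with 7 called higher and 1 lower. Acta2, the smooth muscle actin, was at 53.3 and 65.1 FPKM in Neg but also at 26.8 and 35.7 in Fb. Rgs5, a pericyte gene, was at 11.3 and 21.2 FPKM in Neg and 4.09 and 13.3 in Fb, so that the second Fb library was above the first Neg library.

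Muscle genes held 38 members, from progenitor factors to contractile filaments. Pax7, a factor of muscle progenitors, was at 25.03 and 20.3 FPKM in Neg replicates 1 and 2 and at most 0.658 elsewhere. Myod1, which follows Myf5 in commitment, was at 64.5 and 36.2 FPKM, and Myog, which starts differentiation, was highest of these factors at 116 and 95.4. Msc, a helix-loop-helix factor of muscle precursors, was at 87.4 and 62.4 FPKM. Factors of progenitors, committed cells and differentiating cells were thus all present.

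Among contractile genes, forms that embryonic muscle uses led. Actc1, the cardiac actin that early skeletal muscle also makes, was at 2247 and 2109 FPKM in Neg and 3.83 to 49.6 elsewhere. Tnnt2, the cardiac troponin T, was at 285 and 213 FPKM, against 0.275 to 6.55. Tnnt1, the slow skeletal troponin T, was at 246 and 158 FPKM, against 0.0834 to 9.51. Cell fusion genes were present as well, with Tmem8c, the fusion protein myomaker, at 88.2 and 77.4 FPKM. Of 56 tested genes of muscle filaments and contraction, 16 were members, 29 others were called higher and 1 lower. Over all genes tested, 8.29% were called higher and 4.33% lower. Ankrd1, Cacng1, Csrp3, Hspb3, Jsrp1, Klhl31, Lmod3, Mylk4 and Unc45b, called higher, stayed under 1 FPKM in the other 14 libraries. They were tested only through Neg, so their calls support nothing.

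Of 17 tested myogenic transcription factors, 8 were members, 3 others were called higher, 1 lower and 5 were not called. The one called lower was Pax3, a factor that acts before Pax7 in muscle precursors and also in neural crest: it was at 0.287 and 0.290 FPKM in Neg, at 59.3 and 68.7 in Mc and at 26.2 and 29.2 in Sch. Of 41 tested genes of the muscle cell surface and metabolism, 11 were members and 13 others were called higher. Among the 13, Cox6a2, Dok7, Hfe2 and Sgca stayed under 1 FPKM in all libraries but Neg, so their calls support nothing. Des, the muscle intermediate filament, missed the rule through Sch: it was at 82.1 and 39.5 FPKM in Neg and at 37.5 and 19.0 in Sch.

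Patterns read by myogenic factors were searched in the same way. CAGCTG was in 29.6% of the 27 matched muscle promoters, against 12.3% of all promoters, CAGGTG in 29.6%, against 16.8%, and the MEF2 pattern, which is CTA and TAG with any 4 bases between them, in 14.8%, against 3.21%. The windows of Tnnt2 and of Klhl41, a sarcomere gene shown because all 3 patterns occur in its window and chosen after the search, carry CAGCTG, the reverse complement of CAGGTG and, in Klhl41, the MEF2 pattern in capitals. Tnnt2 is on the plus strand at chr1:135836084-135836333 and Klhl41 on the plus strand at chr2:69669870-69670119.
Tnnt2: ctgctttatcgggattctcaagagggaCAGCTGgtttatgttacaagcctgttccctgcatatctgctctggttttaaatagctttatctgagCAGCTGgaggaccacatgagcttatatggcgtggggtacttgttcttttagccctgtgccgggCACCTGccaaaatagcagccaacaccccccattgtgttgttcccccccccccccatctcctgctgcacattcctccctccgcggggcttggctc
Klhl41: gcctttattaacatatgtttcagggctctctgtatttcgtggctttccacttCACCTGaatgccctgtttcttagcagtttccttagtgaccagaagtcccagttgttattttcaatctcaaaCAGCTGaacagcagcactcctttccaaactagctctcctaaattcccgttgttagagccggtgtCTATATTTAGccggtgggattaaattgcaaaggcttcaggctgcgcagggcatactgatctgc
In Tnnt2 the matches began 223, 157 and 94 bases before the start, and in Klhl41 198, 127 and 63 bases before it.

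The 45 members outside these groups had a median Neg mean of 19.7 FPKM. Capn6, a calpain without protease activity, was the most abundant, at 276 and 318 FPKM in Neg replicates 1 and 2, but it was present in the other 14 libraries too, at 2.14 to 27.5 FPKM. Gatm, an enzyme of creatine synthesis, was at 43.6 and 68.4 FPKM, with its highest other values in Sch (3.81 and 7.48). Ube2l6, the conjugating enzyme for the ubiquitin-like protein Isg15, was at 32.3 and 73.8 FPKM. Tmem255a, a membrane protein, was at 88.1 and 97.3 FPKM.

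Some genes lay close to the limits of the rule. At the 4-fold limit, Rnf125, Tek and Prox1 were just inside, at 4.02, 4.11 and 4.12 times their highest other library. Nefl, Myom1 and Hhex were just outside, at 3.84, 3.82 and 3.79 times. At the minimum, Sox17, Tespa1 and Sash3 were just inside, with lower Neg values of 5.12, 5.13 and 5.13 FPKM, and Cyyr1, Mylk4 and Fmnl1 just outside, with 4.98, 4.87 and 4.83.

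The 2 Neg libraries did not hold the groups in the same proportion. The log2 ratio of Neg replicate 1 to replicate 2 had a median of 0.41 over the 40 vessel members, 0.29 over the 38 muscle members, 0.18 over the 41 white cell members and 0.15 over the 13 mast cell members, but −0.56 over the 15 red cell members and −0.12 over the 45 others. The rule did not use this ratio, but both values enter it through the lower one. In counts, 33 of 40 vessel genes and 27 of 38 muscle genes were higher in replicate 1, and 12 of 15 red cell genes in replicate 2. Over the 7775 genes that are not members and have a lower Neg value of at least 5 FPKM, the median was −0.07. Of those genes 7.45% differed more than 2-fold between the Neg libraries, against 12.8% of the members.

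The widest gap among the 196 genes was that of Tie1, an endothelial receptor, at 22.2 FPKM in Neg replicate 1 and 6.10 in replicate 2. Another vessel gene, Cldn5, an endothelial tight junction protein, was at 30.1 and 10.5. These genes were named after their values were seen. Emcn and Cd93 did not follow them: Emcn was higher in replicate 2, and Cd93 differed little. Among red cell genes Slc25a37 (145 and 398 FPKM) had one of the 2 ratios beyond 2-fold, both toward replicate 2, whereas Hba-x was higher in replicate 1. With 1 library on each side, these ratios have no replicate check.

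**Figure D3:**
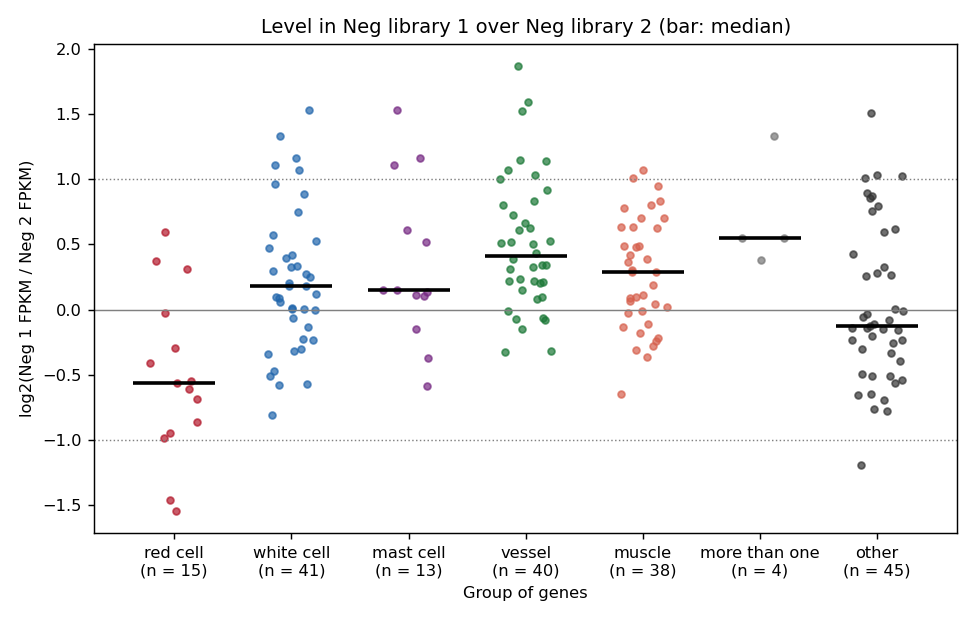
Log2 ratio of the FPKM in Neg replicate 1 to that in Neg replicate 2 for each of the 196 genes (points, spread sideways at random for legibility), by group, with the group median as a black bar and 2-fold marked by dotted lines. The median bar of the red cell genes lies at −0.56 and that of the vessel genes at 0.41.

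Outside Neg the groups were present at a few percent or less of their Neg level, and not evenly. For each of the 14 other libraries, the level of each member was expressed as a percent of its Neg mean. The median over the vessel members ran from 1.44% to 6.31% and was the highest of the 5 named groups in every library but Epi replicate 2, where the white cell and the vessel median were both 3.56%. Red cell medians ran from 0.31% to 1.28%, muscle medians from 0.20% to 2.28%, white cell medians from 0.31% to 3.56%, and mast cell medians from 0% to 1.88%. The rule caps these percents from above but does not order the libraries. By fraction mean, Fb was the highest of the 7 for 25 of the 38 muscle genes and Sch for 8, whereas Epi was the highest for 18 of the 41 white cell genes and Mc for 8.

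A single library, Fb replicate 2, was the highest of the 14 for 52 of the 196 genes, against 9 for Fb replicate 1. It was followed by Sch replicate 1 with 22, Epi replicate 2 with 21 and Epi replicate 1 with 19. Fb replicate 2 had 14.5 FPKM of Cpa3 and 5.65 of Cma1, against 0.918 and 0.0891 in Fb replicate 1. Its Hbb-y level was 157 FPKM, against 28.6. The library therefore stood above its own replicate for genes of blood, mast cells and vessels together. DC replicate 1 was the opposite for vessel genes, with Pecam1 at 0.347 FPKM and 2.58 in DC replicate 2.

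**Figure D4:**
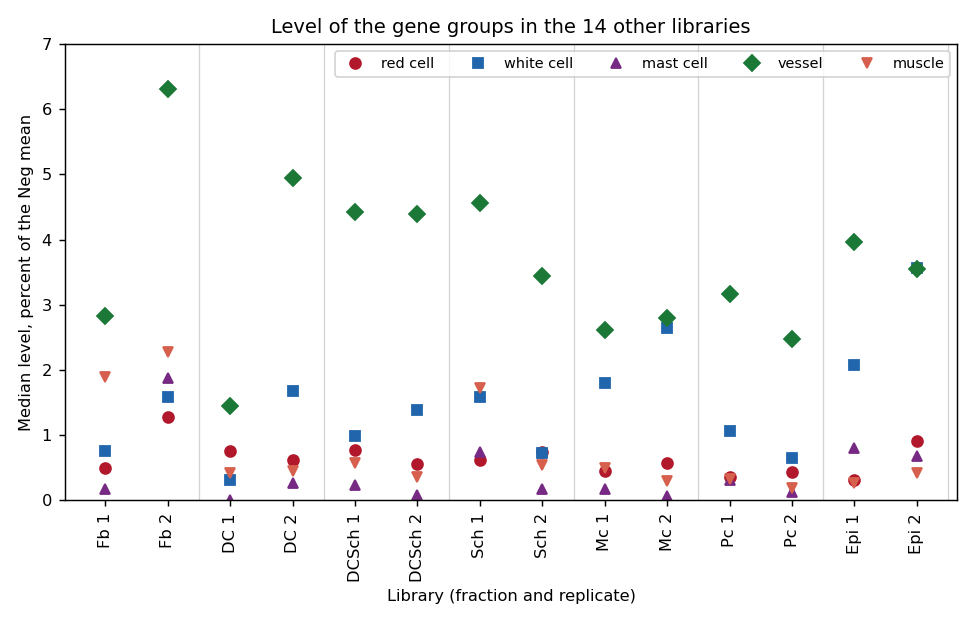
Median level of the red cell, white cell, mast cell, vessel and muscle genes in each of the 14 libraries other than Neg, as a percent of the Neg mean of each gene. Vessel genes (diamonds) reach 6.31% in Fb replicate 2, and muscle genes (triangles pointing down) are highest in Fb replicate 2 at 2.28%.

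Whether members differ among the other 7 fractions can be tested without Neg, since neither the filter nor the fit then uses Neg values. Each fraction was compared with the mean of the remaining 6 in limma on log2(FPKM + 1), a scale that understates the change of low genes, with p adjusted over all 13732 genes tested and the 7 comparisons. Of the 196 members, 90 reached 1 FPKM in at least 2 of the 14 libraries and were tested, and 106 did not. Of the 90, 33 were called higher in at least 1 fraction (36.7%), against 33.9% of all genes tested, so this share was near the background. Among the 33 members, 4, including Msc and Serpinb1a in Fb and Tpsb2 in Mc, passed the filter only through the fraction where they were high, so their calls support nothing. In the other direction 5 of the 90 were called lower in at least 1 fraction, against 25.9% of all genes. The rule caps the members in these 14 libraries, and a low gene can hardly fall by 1 on this scale. Nothing is therefore read from that low share. The tested members had a median of 0.81 for the largest of their 7 log2 differences, against 0.71 over all genes.

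Fb had the most, with 12 members called higher, where 9.16% of all genes were called. Of the 16 tested muscle genes 7 were among them. Actc1 was at 26.9 and 49.6 FPKM in Fb replicates 1 and 2, but at 40.6 in Sch replicate 1, which lay between them (log2 difference 2.09 ± 0.44 SE, limma adjusted p = 0.00485). Fndc5, the precursor of irisin, was at 5.64 and 4.17 FPKM in Fb, above all other libraries but Neg (log2 difference 1.76 ± 0.24, limma adjusted p = 3.14e-04). The vessel genes Meox2, a homeodomain factor, and Tek were also higher, by 1.65 ± 0.22 and 1.40 ± 0.18 on the log2 scale (limma adjusted p = 2.50e-04 and 1.87e-04), and so was Car2, by 1.47 ± 0.27 (limma adjusted p = 0.00207).

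Without Fb replicate 2 the count in Fb was 6. Actc1, Tnnt2, Myl4 and Kcne1l then missed the threshold, with limma adjusted p = 0.0659, 0.0896, 0.0520 and 0.0967, and Msc and Serpinb1a were among those that no longer passed the filter. Myl4 and Kcne1l also missed the threshold without Fb replicate 1 (limma adjusted p = 0.0786 and 0.0513). Fndc5, Meox2, Tek and Car2 remained called with either Fb library left out. Other muscle genes were low in Fb: Pax7 was at 0.658 and 0.430 FPKM and Myod1 at 0.610 and 0.914. What part muscle or vessel cells in Fb have in these differences was not tested.

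Mc had 7 members called higher, where 5.72% of all genes were called, and 4 of these were white cell genes. Tyrobp was at 3.92 and 5.30 FPKM in Mc replicates 1 and 2 (log2 difference 1.66 ± 0.23, limma adjusted p = 3.61e-04), and also at 4.49 and 5.58 in Epi, where it was called too (1.79 ± 0.23, limma adjusted p = 2.15e-04). Lrrc33, a myeloid membrane protein that tethers latent transforming growth factor beta, was at 3.85 and 4.56 FPKM in Mc and at most 1.05 in the 12 remaining libraries (log2 difference 1.72 ± 0.16, limma adjusted p = 1.72e-05). Prox1 was at 6.91 and 7.24 FPKM, against at most 2.35 in those 12 (log2 difference 1.44 ± 0.15, limma adjusted p = 4.92e-05). Tpsb2 was at 2.97 and 1.51 FPKM in Mc, whereas Cpa3 was at 1.94 and 1.44, within the range of the other fractions.

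Macrophage genes that are no members were also seen in Mc. Pf4, a chemokine of platelets and macrophages, was at 6.25 and 8.51 FPKM in Mc and at 3.30 and 5.85 in Epi, and Mrc1 was at 1.80 and 3.67 in Mc. Their part in the white cell calls was not tested. The count in Mc was 4 without Mc replicate 1 and 3 without Mc replicate 2. Fcer1g missed the threshold in both cases (limma adjusted p = 0.0831 and 0.101), and so did Lcp1 (limma adjusted p = 0.0958 and 0.131). Lrrc33, Tyrobp and Prox1 remained called. The one member called lower in Mc was Gngt2, a G protein gamma subunit, at 0.856 and 0 FPKM, with 6.65% of all genes called lower there, and it missed the threshold without Mc replicate 2 (limma adjusted p = 0.0994). In Pc, where 9.77% of all genes were called lower, Gngt2 and Tnnt1 were called, but both missed the threshold without Pc replicate 2 (limma adjusted p = 0.224 and 0.220) and in other runs. Tnnt1 was also called lower in Epi (10.3% of all genes), but not without Epi replicate 1 (limma adjusted p = 0.0670).

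DC had 4 members called higher (8.74% of all genes) and DCSch 1 (6.27%). Kdr was at 7.36 and 8.65 FPKM in DC replicates 1 and 2 (log2 difference 1.54 ± 0.19, limma adjusted p = 1.63e-04), while Cdh5 in the same libraries was at 0.790 and 5.59 and Pecam1 at 0.347 and 2.58. Kdr was thus high in DC replicate 1, the library where those junction genes were at their lowest. Pde2a, a phosphodiesterase, was at 4.09 and 3.97 FPKM in DC and 4.17 and 3.54 in DCSch, and was called in both (log2 differences 1.34 ± 0.18 and 1.28 ± 0.18, limma adjusted p = 3.11e-04 and 4.31e-04). S100a8 was at 4.22 and 3.84 FPKM in DC (log2 difference 1.79 ± 0.36, limma adjusted p = 0.00377). In the other direction Capn6 was lower in DC, at 2.34 and 2.14 FPKM (log2 difference −2.12 ± 0.17, limma adjusted p = 6.38e-06), with 8.99% of all genes called lower there, and Tyrobp was lower in DCSch, at 0 and 0 FPKM (log2 difference −1.23 ± 0.23, limma adjusted p = 0.00253), with 2.66% called lower. The DCSch count was 2 without Fb replicate 2, without DC replicate 2 or without Mc replicate 1.

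Sch had 4 members called higher (7.13% of all genes). Isl1, a homeodomain factor of sensory neurons and other cells, was at 3.51 and 3.53 FPKM in Sch replicates 1 and 2 (log2 difference 1.76 ± 0.18, limma adjusted p = 3.44e-05). Gatm was at 3.81 and 7.48 FPKM (log2 difference 1.78 ± 0.24, limma adjusted p = 2.34e-04). Tnnt1 was the only muscle member called there, at 9.51 and 7.69 FPKM (log2 difference 1.43 ± 0.30, limma adjusted p = 0.00452). Without Sch replicate 1 Tnnt1 missed the threshold (limma adjusted p = 0.0506), and without Sch replicate 2 the count was 10. In Sch replicate 1 several muscle genes were above Sch replicate 2: Actc1 was at 40.6 and 10.8 FPKM, Mylpf at 12.3 and 2.96, and Tnnt2 at 6.41 and 1.30.

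Pc had 4 members called higher (6.39% of all genes) and Epi 4 (8.14%). Capn6 was at 24.1 and 27.5 FPKM in Pc replicates 1 and 2 (log2 difference 1.44 ± 0.17, limma adjusted p = 9.42e-05). The vessel gene Palmd, which encodes palmdelphin, was at 2.76 and 3.96 FPKM in Pc (log2 difference 1.29 ± 0.17, limma adjusted p = 1.94e-04). Prnd, the prion-like gene of endothelial cells, was at 5.17 and 5.27 FPKM in Pc, with Epi at 4.38 and 4.49, and was called in both (log2 differences 1.28 ± 0.28 and 1.05 ± 0.28, limma adjusted p = 0.00644 and 0.0183). The Epi count was 2 without Fb replicate 1 and 1 without Epi replicate 2, and Prnd in Epi missed the threshold without either Epi library in turn (limma adjusted p = 0.0960 and 0.104) and with every library set to the same total FPKM (limma adjusted p = 0.0645).

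**Figure D5:**
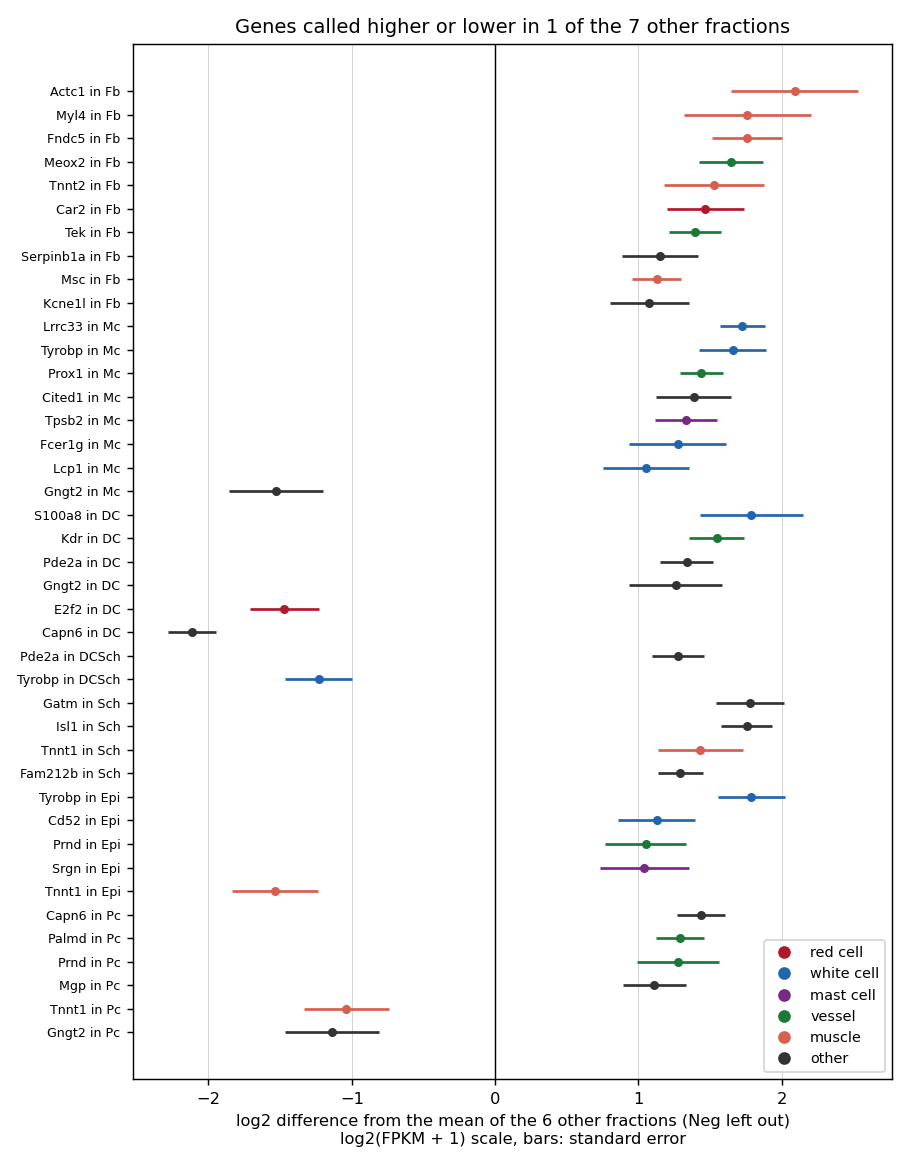
Members (a few are not shown) called higher or lower in 1 of the 7 other fractions against the mean of the remaining 6, with Neg left out: log2 difference (points) and its standard error (bars), coloured by group and ordered by fraction. Muscle genes (light red) gather under Fb, white cell genes (blue) under Mc and Epi.

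For the cell types that the other fractions are named for, all 10 tested Schwann cell genes, 9 of 10 melanocyte genes, 10 of 12 keratinocyte genes and 7 of 10 dermal condensate genes were called lower in Neg, against 4.33% of all genes. Each such call sets Neg against a mean that includes the fraction named for the type. The summed level of the keratinocyte genes averaged 110.1 FPKM in Neg, 103 in Fb and 6245 in Epi. For melanocyte genes it was 18.5 in Neg, 9.41 in Fb, 14.6 in Sch and 7815 in Mc. For Schwann cell genes it was 16.9 in Neg, 13.5 in Fb and 2514 in Sch. In each of these sums Neg was nearer to Fb than to the fraction named for the type. Fibroblast genes did not follow this pattern: 3 of 12 were called higher, 1 lower and 8 not called, and their summed level was 892 and 1021 FPKM in Neg replicates 1 and 2, against 9969 and 8986 in Fb, 2069 to 2899.7 in DC and DCSch and at most 668 in Sch, Mc, Pc or Epi. What part fibroblasts in Neg have in any value above was not tested.

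The FPKM of the 16 libraries summed to between 439201 and 606437, and 11273 to 12137 genes had at least 1 FPKM. The depth of the libraries in fragments is unknown, so values near 0 carry an unstated counting error. With every library set to the same total, 161 of the members still met the rule, and the median log2 difference of Neg from the other fractions over all genes moved from −0.03 to −0.22. The split of genes called between Neg and the other fractions then changed from 65.7% higher to 52.5% higher (quantile normalization 56.3%).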

How the data were processed

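RNA sequencing was done on 16 libraries, 2 for each of 8 sorted fractions of skin at embryonic day 14.5. The deposited table holds FPKM per gene, made by the authors with TopHat2 2.0.3, Bowtie2 and Cufflinks 2.1.1 on mm10, per the submitters' processing notes. No counts are given, so depth and counting error are unknown, and a low value has no interval. No per-sample column was left unused (0). Members and gene lists were chosen with earlier results of these data known.

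On log2(FPKM + 1), limma 3.58.1 (R 4.3.3, trend and robust options) fitted a linear model for genes with at least 1 FPKM in at least 2 libraries, and p was adjusted by Benjamini-Hochberg. A call needed an adjusted p under 0.05 and a log2 difference of at least 1. Neg was compared with the mean of the other 7 fractions over 16 libraries. Each other fraction was compared with the mean of the remaining 6 over 14 libraries, with p adjusted over genes and comparisons together. The script was tested on simulated data.

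Genes were named by rule: the highest members of each group by lower Neg value, the highest transcription factors of vessel and muscle, and up to 5 members per fraction called higher, plus the list genes that are no members and have the highest Neg means. Other genes were named after their values were seen. Replicate numbers were taken to pair the samples, because the deviations of same-numbered libraries correlated in all 28 pairs of fractions (r from 0.148 to 0.656). Fits with the replicate as a block were therefore run as well. Alternatives covered the limits of the rule, the pseudocount, the filter, scaling and leaving out each library. Promoter sequences came from RefSeq (GRCm38.p6), which held 134 members. A few genes are not reported here by name, but they remain in the counts.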

Additional observations from a re-analysis of the deposited data

How the results depend on the processing

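The set held 333 genes with a minimum of 1 FPKM and 78 with 20 FPKM, and 161 with every library set to the same total. Leaving out 1 library gave 196 to 278 members, with 278 without Neg replicate 2 and 224 without Neg replicate 1. Genes called higher in Neg ranged from 807 to 1181 and lower from 432 to 646 in those runs, and 920 were lower with a pseudocount of 0.1. Members called higher in any other fraction ranged from 26 to 36 without 1 library, with 6 to 14 in Fb, 3 to 7 in Mc, 3 to 6 in DC, 1 to 2 in DCSch, 4 to 10 in Sch, 1 to 5 in Epi and 3 to 4 in Pc. A pseudocount of 0.1 gave 8 in Epi and 21 in Fb. The same total gave 2 in DCSch, 2 in Epi and 7 in Sch, and the same total without globin rows gave 2, 1 and 7. The cause was not tested. With the replicate block, 1200 genes were higher and 650 lower in Neg, and the block changed no call of a member in another fraction. No direction reversed. A fraction left with 1 library was assumed to vary like the others. Low members are limited by the unknown depth: 106 of 196 were too low outside Neg to be tested there.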

Other observations

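Macrophage genes, most of them no members, differed between the Neg libraries. Of 39 such genes with a Neg mean of at least 1 FPKM, 31 were higher in Neg replicate 2, 21 of them by more than 2-fold, and the median log2 ratio of replicate 1 to replicate 2 was −1.08. Over all 12172 genes with such a mean, 5.35% were more than 2-fold higher in replicate 2 and 9.97% in replicate 1, with a median of −0.04. Outside Neg, macrophage genes were counted where their mean in the fraction was at least 1 FPKM. Replicate 2 was higher for 16 of 20 in Mc, 10 of 17 in Epi, 8 of 14 in Fb and 5 of 9 in Sch. It was higher for 5 of 12 in DCSch, 3 of 11 in DC and 2 of 9 in Pc. Pf4 was at 2.68 and 30.1 FPKM in Neg replicates 1 and 2, Mrc1 at 3.82 and 15.8, and Csf1r, the receptor for the macrophage growth factor, at 1.23 and 3.82. C1qb, a complement chain that macrophages make, was at 0.403 and 7.31. Neutrophil granule genes went the other way, with 8 of 10 higher in replicate 1: Camp was at 18.9 and 2.39 FPKM and Lcn2 at 9.68 and 1.80.

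A joint list held immediate early genes, which cells switch on within minutes of a stimulus, and stress genes such as Hspa1a and Hspa1b. Its genes were higher in Neg replicate 1 for 10 of 10 counted, with a median log2 ratio of 0.98. This was not particular to Neg: replicate 1 was also higher for 11 of 11 in Fb, 7 of 7 in DC, 9 of 9 in DCSch, 10 of 10 in Sch, 9 of 9 in Pc, 10 of 10 in Epi and 6 of 8 in Mc. The genes in this and the preceding paragraph were chosen after their values were seen.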
